A study of Mus musculus with 24 samples.

Results

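The comparison described here is BDNF for 30 min against untreated control in wild-type (WT) mouse cortical neurons, taken across all genes. Its members are 8 of the 24 libraries of the series, chosen by their labels: 4 WT BDNF 30 min libraries and 4 WT control libraries, 1 of each from the cultures coded WT2C, WT2D, WT2E and WT2F. All neurons were dissected from embryos at E16.5 (the embryonic day), kept in culture for 12 days, and sampled as polyadenylated RNA. The other groups were WT neurons given BDNF for 24 h, and neurons with a knockout (KO) of the histone variant gene H2be, whose allele carries an mCherry knock-in, given BDNF for 30 min, given it for 24 h or left as controls, with 4 libraries each. The labels do not give the dose of BDNF, the vehicle of the controls or the sex or number of embryos behind a culture. Primary cortical cultures of this kind hold neurons with a minority of glia, and bulk RNA averages over all of them.

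BDNF is a secreted neurotrophin that binds the receptor tyrosine kinase TrkB, the product of Ntrk2. Bound TrkB signals through Ras and ERK, phospholipase C gamma and PI3 kinase, and the kinases downstream of ERK phosphorylate factors already present on DNA, among them CREB and the ternary complex factors that sit with SRF. The genes that these factors switch on without new protein synthesis are called immediate early genes. They encode transcription factors, synaptic effectors and inhibitors of the signal itself.

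The 8 libraries held 41480537 to 62135270 counts in the BDNF 30 min group and 32452761 to 44903976 in the control group, and the BDNF library was the deeper of the 2 in every culture. The share of mitochondrial genes was 4.75% to 6.40% at 30 min and 5.11% to 5.46% in controls. The defining neuronal markers were present: the 12 pan-neuronal genes summed to 10044 to 10490 CPM (counts per 1000000, scaled by TMM factors) at 30 min and 10101 to 10490 CPM in controls. Summed interneuron markers ran from 1546 to 4460 CPM at 30 min and from 1593 to 4067 CPM in controls. Each BDNF library was compared with the control library of its own culture. Fold changes are BDNF 30 min over control, as log2 values ± SE, and p-values come from the quasi-likelihood test of edgeR, with the culture as a block, and are adjusted by Benjamini-Hochberg over all genes tested (n = 4 libraries per group).

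BDNF for 30 min raised a compact set of genes and lowered few. Of 15458 genes tested, 241 passed an adjusted p of 0.05 (1.56%), of which 221 rose (1.43%) and 20 fell (0.129%). An unadjusted p under 0.05 was found for 1736 genes. The rises were large: 60 genes rose over 2-fold and 15 over 8-fold, while the other 161 rose by up to 2-fold, and the median rise was 0.58 log2 units. The falls were small, with a median size of 0.288 log2 units. The median log2 fold change of all tested genes was -0.003. Of the 241 genes, 238 moved the same way in all 4 cultures, and the exceptions were Bdnf, Kdm6b and Malat1. The test that picked the 241 used these same 4 pairs, which favours a shared direction. The 4 BDNF 30 min libraries did not overlap the 4 control libraries for 142 of the rises and 11 of the falls, against 486 of all tested genes (3.14%). Without the culture as a block 60 genes rose and 0 fell, with 172 genes lower at an unadjusted p under 0.05. The biological coefficient of variation was 7.12% with the block and 18.3% without it.

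**Figure D1:**
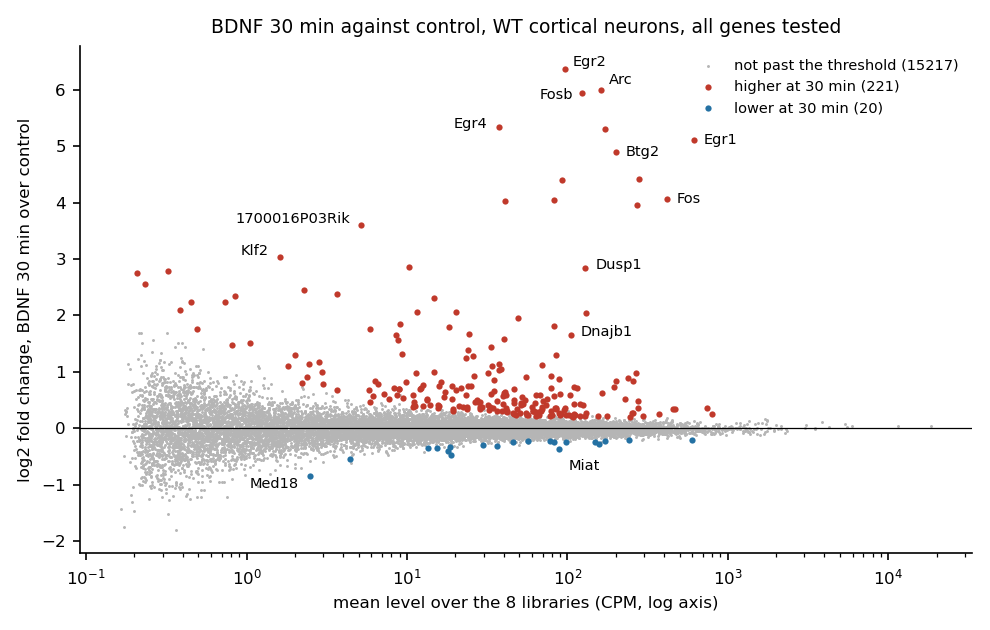
Log2 fold change of BDNF 30 min over control for each of the 15458 genes tested, against the mean level over the 8 WT libraries in CPM on a log axis. Red points are the 221 genes that rose and blue points the 20 that fell; the rises reach 6.38 (Egr2) and the largest fall is -0.84 (Med18).

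Immediate early transcription factors led the response: 27 of the 31 measured rose (87.1%, against 1.43% of tested genes). This list and the others below were chosen with earlier results of these data known, which can raise such shares. The median log2 fold change over the list was 1.65. Egr2, a zinc finger factor also known for its part in hindbrain patterning and myelination, had 204, 149.8, 146 and 262 CPM at 30 min of BDNF, against 1.35, 2.27, 1.42 and 4.01 CPM in control (6.38 ± 0.12, adjusted p = 3.82e-17). Its lowest BDNF library was far above its highest control library. Egr4, of the same family, stood at 50.8, 61.7, 62.9 and 116 CPM at 30 min and 1.32, 1.45, 1.30 and 3.11 CPM in control (5.35 ± 0.08), with both of its highest values in culture WT2F. Egr1, the best studied member and a common marker of neuronal activity, reached 1153, 1186, 1187 and 1249 CPM at 30 min, against 39.2, 35.8, 20.4 and 47.2 CPM in control (5.11 ± 0.13). The BDNF libraries lay close together, while the highest control was more than 2-fold above the lowest. Egr3 followed with 70.8, 59.7, 58.5 and 119 CPM at 30 min and 4.19, 2.91, 3.61 and 8.61 CPM in control (4.03 ± 0.08). Egr2 lies on chromosome 10 from 67535475 to 67542188, Egr3 on chromosome 14 from 70077203 to 70082614 and Egr4 on chromosome 6 from 85511121 to 85513589 (mm10).

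Promoter windows of 4 of the largest rises are printed for the motifs they hold, each running from 250 bases before to 50 after the RefSeq start (GRCm38.p6). CREB-type sites are read by the palindrome TGACGTCA and its shorter core TGACGT, and SRF binds the CArG box, whose core is framed by CC and GG. Capitals mark matches to these motifs or to GCGNGGGCG, the site of Egr proteins, on either strand.
Egr2, chr10:67537619-67537918, plus strand: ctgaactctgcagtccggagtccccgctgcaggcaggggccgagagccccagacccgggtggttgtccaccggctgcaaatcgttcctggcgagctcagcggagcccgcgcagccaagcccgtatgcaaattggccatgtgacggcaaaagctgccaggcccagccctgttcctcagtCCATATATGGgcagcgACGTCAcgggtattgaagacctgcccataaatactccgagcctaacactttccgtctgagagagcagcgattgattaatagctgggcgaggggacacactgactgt
Egr4, chr6:85513540-85513839, minus strand: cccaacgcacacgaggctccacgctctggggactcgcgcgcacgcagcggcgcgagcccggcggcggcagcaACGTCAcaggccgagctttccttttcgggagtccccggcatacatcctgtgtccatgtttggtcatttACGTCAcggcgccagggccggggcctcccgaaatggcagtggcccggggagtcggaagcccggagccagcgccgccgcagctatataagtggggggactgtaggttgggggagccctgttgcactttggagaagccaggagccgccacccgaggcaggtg
Ccn1, chr3:145649936-145650235, minus strand: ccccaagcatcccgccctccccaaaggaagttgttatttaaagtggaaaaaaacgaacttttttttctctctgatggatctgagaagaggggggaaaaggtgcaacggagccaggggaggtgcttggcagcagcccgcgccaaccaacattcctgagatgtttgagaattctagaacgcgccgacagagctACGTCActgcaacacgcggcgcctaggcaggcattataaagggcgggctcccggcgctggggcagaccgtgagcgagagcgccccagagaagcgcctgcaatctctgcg
Btg2, chr1:134079106-134079405, minus strand: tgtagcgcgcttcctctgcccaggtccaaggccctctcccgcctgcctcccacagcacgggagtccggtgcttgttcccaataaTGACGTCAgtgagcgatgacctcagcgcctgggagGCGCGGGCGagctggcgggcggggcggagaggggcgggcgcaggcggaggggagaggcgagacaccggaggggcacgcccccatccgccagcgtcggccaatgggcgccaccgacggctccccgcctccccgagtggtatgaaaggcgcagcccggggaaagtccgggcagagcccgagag
In this Egr2 window the CArG match CCATATATGG runs from base -72 to base -63 relative to the start, and a TGACGT match on the other strand follows from -56 to -51. Egr4 holds TGACGT matches at -178 and at -110, Ccn1 holds 1 at -59 and Btg2 holds the full palindrome from -166 to -159. Egr2 has 5 windows, and the one printed was chosen for having the most matches. The window of Fosb, also among the largest rises, is not printed: it held a GCGNGGGCG match but no TGACGT or CArG match. Of the 24 largest rises 20 had a window, and 9 of these held TGACGT (45.0%). Over all genes that rose and had a window, 50 of 162 held TGACGT (30.9%), as did 16 of the 40 that rose over 2-fold (40.0%), against 1469 of 11351 tested genes (12.9%) and 7.51% of the 32851 windows in the table. The full TGACGTCA, which contains the shorter motif, was found for 15 of the 162 (9.26%), against 408 of the 11351 tested genes (3.59%) and 1.79% of all windows. The CArG box was found for 6 of 162 (3.70%) against 1.66% of tested genes, GCGNGGGCG for 28 (17.3%) against 12.5%, and the AP-1 site TGACTCA for 7 (4.32%) against 4.33%. These shares describe letters in a window and were not tested, and TGACGT was added to the search after the windows had been read. Arc, Egr1, Ier2 and Egr3 had no entry in the promoter table.

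The AP-1 genes, whose products pair as Fos with Jun proteins on DNA, split by size of response. Fosb had 192, 262, 263 and 254 CPM at 30 min and 3.31, 5.18, 4.73 and 2.61 CPM in control (5.95 ± 0.10, adjusted p = 1.3e-17). Fos had 632, 901, 918 and 682 CPM at 30 min, against 43.96, 59.3, 75.5 and 21.04 CPM in control (4.07 ± 0.15). Both sets of libraries were apart, and the lowest control library of each gene was WT2F, where the ratio for Fos was the largest of the 4 cultures, 5.02 log2 units, against 3.60 in WT2E. Junb rose by 4.41 ± 0.14, Jun by 2.05 ± 0.07 and Atf3, a stress-inducible partner of Jun, by 2.06 ± 0.12, whereas Jund rose by 0.55 ± 0.07 and Fosl2 by 0.36 ± 0.06. Fosl1 had a log2 fold change of 0.23 and did not pass. The Junb span overlaps Prdx2 on the opposite strand, which did not pass (-0.05).

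Npas4, a neuron-specific factor that in mouse neurons shapes inhibitory synapses, had 325, 758, 819 and 237 CPM at 30 min and 19.5, 29.1, 49.9 and 7.53 CPM in control (4.42 ± 0.12, adjusted p = 5.86e-15). Its BDNF values in WT2D and WT2E were more than 2-fold above those in WT2C and WT2F, and its controls followed the same order of cultures. Among the orphan nuclear receptors Nr4a1 rose by 3.96 ± 0.14, with 389, 619, 592 and 431 CPM at 30 min and 30.6, 44.4, 48.2 and 14.98 CPM in control. Its relatives Nr4a3 (0.98 ± 0.11) and Nr4a2 (0.88 ± 0.07) rose less and had control levels of 132, 202, 322 and 87.5 CPM and 51.9, 69.1, 87.5 and 40.3 CPM. Ier2, a nuclear protein of growth factor responses, rose by 4.05 ± 0.10. The Krüppel-like factor genes Klf2 (3.04 ± 0.30) and Klf4 (2.38 ± 0.16) were low in every library, Klf2 with 3.06, 1.82, 1.69 and 5.01 CPM at 30 min and 0.122, 0.311, 0.295 and 0.627 CPM in control. Klf10 (1.01 ± 0.10), Klf6 (0.84 ± 0.06), Csrnp1 (1.65 ± 0.12), Maff (1.85 ± 0.18) and Srf itself (0.70 ± 0.07) also rose. Beside Fosl1, the members that did not pass were Cebpb (0.77), Crem (0.20) and Myc (0.14), and Cebpd was too low to test.

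**Figure D2:**
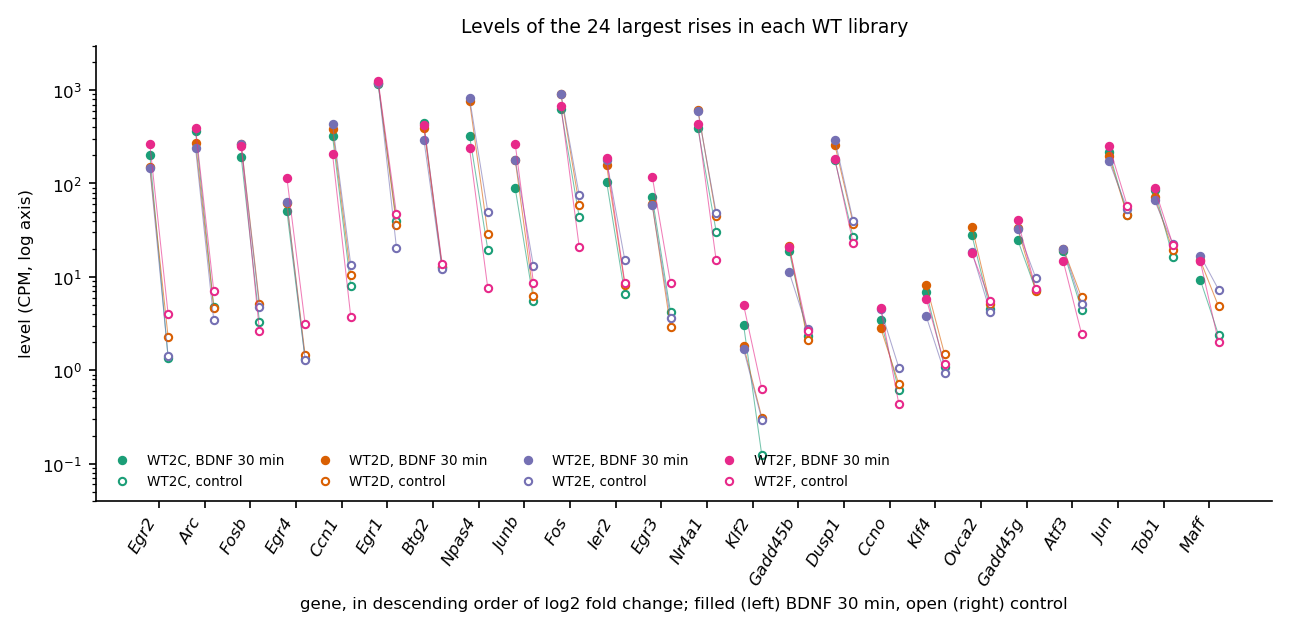
Levels in CPM on a log axis of the 24 genes with the largest rises, 1 point per WT library coloured by culture, BDNF 30 min filled on the left of each pair and control open on the right, joined within a culture. Every BDNF point lies above its own control and above all 4 controls of that gene; the log2 fold changes run from 6.38 (Egr2) down to 1.85 (Maff).

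Rapid effector genes rose with the transcription factors, 24 of 35 (68.6%, against 1.43% of tested genes) with a median of 0.69. Arc, which encodes a synaptic protein that promotes removal of AMPA receptors, had 367, 274, 242 and 389 CPM at 30 min of BDNF, against 4.78, 4.62, 3.43 and 7.05 CPM in control (5.995 ± 0.08, adjusted p = 2.33e-19). It lies on chromosome 15 from 74669083 to 74672570. Ccn1, a secreted matrix protein, had 322, 386, 432 and 207 CPM at 30 min and 7.96, 10.4, 13.4 and 3.72 CPM in control (5.30 ± 0.09), and WT2F was lowest in both groups. The stress-inducible Gadd45b (2.86 ± 0.15) and Gadd45g (2.07 ± 0.10) rose while Gadd45a, the third of the family, did not pass (0.11). Ptgs2, the inducible prostaglandin synthase, had 0.901, 1.31, 1.69 and 0.775 CPM at 30 min and 0.184, 0.222, 0.827 and 0 CPM in control (2.25 ± 0.47, adjusted p = 0.0156), and its groups overlapped at this low level. The kinase genes Plk2 (0.74 ± 0.04) and Sik1 (1.13 ± 0.07), the small GTPase gene Arl4d (1.67 ± 0.09), the ubiquitin ligase component gene Fbxo33 (1.45 ± 0.07) and the pseudokinase gene Trib1 (1.40 ± 0.12) rose by intermediate amounts. Homer1, whose short activity-induced form cannot be separated from the long forms in counts per gene, rose by 0.26 ± 0.06. Genes of this list known for slower responses were near 0, with Nptx2 at 0.04, Nrn1 at 0.05 and Inhba at -0.11.

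Of 21 inhibitors that feed back on MAP kinase signalling 7 rose (33.3%, against 1.43% of tested genes), with a median of 0.16. Dusp1, a nuclear phosphatase that inactivates MAP kinases, had 177, 258, 293 and 182 CPM at 30 min and 26.8, 37.2, 39.5 and 22.8 CPM in control (2.85 ± 0.06, adjusted p = 5.48e-17). Its 4 within-culture values lay between 2.72 and 2.99, the narrowest range among the 24 largest rises. The ERK phosphatase genes Dusp6 (1.82 ± 0.11) and Dusp5 (1.80 ± 0.13) followed, Dusp6 with 106, 118, 135 and 151 CPM at 30 min and 33.4, 37.5, 47.7 and 27.1 CPM in control. Spry4 (0.76 ± 0.11) and Spry2 (0.58 ± 0.08), which block growth factor signalling to ERK, rose by less, as did Dusp4 (0.64 ± 0.07) and the receptor inhibitor gene Errfi1 (0.63 ± 0.07). The other 14 did not pass, among them Spred1 (-0.04), Spred2 (-0.10) and Lrig1 (-0.10). The Dusp1 span overlaps Ergic1 on the opposite strand, which did not pass (-0.02, adjusted p = 0.898).

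Of 14 regulators of messenger RNA decay and related antiproliferative genes 5 rose (35.7%, against 1.43% of tested genes). The median over the list was 0.58. Btg2, an antiproliferative protein that recruits the CCR4-NOT deadenylase, had 439, 389, 294 and 422 CPM at 30 min and 12.7, 12.7, 12.1 and 13.8 CPM in control (4.90 ± 0.07, adjusted p = 1.17e-18). The control values spanned only 12.1 to 13.8 CPM. Tob1 (1.96 ± 0.09), Tob2 (1.29 ± 0.07) and Btg1 (1.14 ± 0.08), of the same family, also rose, while Btg3 did not pass (0.16). Zfp36l2, which binds AU-rich elements, rose by 1.10 ± 0.22. Zfp36 itself stood at 0.631, 0.704, 0.248 and 1.16 CPM at 30 min and 0.306, 0.445, 0.355 and 0.193 CPM in control and did not pass (0.99 ± 0.45, adjusted p = 0.425).

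Most transcriptional repressors did not pass: 10% of those measured rose, against 1.43% of tested genes. The EGR corepressors Nab1 and Nab2, which are themselves Egr targets, were at 0.03 and 0.00. Of the 20 repressors and corepressors measured 2 rose, Hes1 (1.17 ± 0.17), an effector of Notch with 4.12, 4.65, 3.18 and 3.72 CPM at 30 min and 1.90, 1.71, 1.80 and 1.54 CPM in control, and the Smad corepressor gene Skil (0.36 ± 0.05). Of 21 measured genes known for late activity responses 3 rose (14.3%, against 1.43% of tested genes). These were Vgf, a neuropeptide precursor (0.89 ± 0.15), Plat, the tissue plasminogen activator gene (0.34 ± 0.07), and the pentraxin gene Nptx1 (0.29 ± 0.07). The calls of Plat and Nptx1 were each lost in 3 of the 4 fits that left out a culture. Vgf had 149, 312, 419.9 and 353 CPM at 30 min and 124, 155, 291 and 103 CPM in control, and its within-culture change ran from 0.27 in WT2C to 1.77 in WT2F.

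The ligand gene rose and its receptor did not pass. Bdnf had 49.8, 96.5, 149.7 and 57.2 CPM at 30 min and 53.7, 64.4, 98.4 and 28.8 CPM in control (0.52 ± 0.11, adjusted p = 0.0118). It was higher than its own control in 3 of 4 cultures, and the pair in WT2C differed by -0.11. The call was lost in 3 of the 4 fits that left out a culture. Ntrk2 had 651, 759, 731 and 681 CPM at 30 min and 695, 790.1, 759.7 and 629 CPM in control (-0.02 ± 0.04, adjusted p = 0.889), and its groups overlapped. Bdnf was the 1 gene of 45 measured neurotrophins, receptors and transducers that passed (2.22%, against 1.56% of tested genes). The median of that list was -0.02. Hist2h2be, the gene targeted in the KO animals, had 4.30, 3.66, 3.97 and 4.48 CPM at 30 min and 4.84, 4.94, 4.79 and 5.98 CPM in control; it was lower in all 4 cultures and did not pass (-0.33 ± 0.13, adjusted p = 0.337).

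Lists of 3 other pathways each held some rises, where 1.43% of all tested genes rose. The shares were 23.8% for FoxO targets, 25% for NF-kB targets and 15.8% for circadian genes. Of 21 FoxO target genes 5 rose, led by Txnip, an inhibitor of thioredoxin (1.31 ± 0.15), and Ddit4, an inhibitor of mTORC1 (0.61 ± 0.07), with Cited2 (0.49 ± 0.08), Irs2 (0.47 ± 0.09) and Cdkn1b (0.22 ± 0.05). Txnip had 21.1, 12.7, 4.81 and 15.3 CPM at 30 min and 5.24, 5.03, 3.22 and 6.95 CPM in control, and its change was 2.004 in WT2C and 0.57 in WT2E. The median of the list was 0.05. Of 12 NF-kB targets measured 3 rose, the inhibitor genes Nfkbiz (1.30 ± 0.21) and Nfkbid (0.80 ± 0.19) and the subunit gene Rel (0.78 ± 0.16), while Nfkbia was at 0.07. Of 19 circadian genes 3 rose, Nfil3 (0.72 ± 0.07), Bhlhe40 (0.59 ± 0.12) and Per1 (0.58 ± 0.09), and these are also on the immediate early list. Per2 was at 0.21 and did not pass.

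Other rises, outside the lists and, save for Ccno, chosen after their values were seen, were as follows. Tiparp, a mono-ADP-ribosyltransferase gene, rose by 1.59 ± 0.09, Adamts1, a secreted metalloprotease gene, by 1.31 ± 0.09, and Ccno, a cyclin gene known from multiciliated cells, by 2.45 ± 0.23. Ccno was low, with 3.43, 2.85, 4.49 and 4.65 CPM at 30 min and 0.612, 0.712, 1.06 and 0.434 CPM in control, and the groups were apart. Ccnl1, a cyclin of splicing kinases, rose by 1.03 ± 0.06, Ptbp1, a splicing repressor, by 0.82 ± 0.08 and Ppp1r10, a nuclear targeting subunit of protein phosphatase 1, by 0.92 ± 0.05. The ETS repressor gene Erf rose by 1.05 ± 0.08 and Smad7, an inhibitor of TGF-beta signalling, by 0.70 ± 0.11. Rhob, a small GTPase gene, rose by 0.84 ± 0.05, Pim3, a kinase gene, by 1.10 ± 0.10, the glucose transporter gene Slc2a1 by 0.54 ± 0.12 and the replacement histone gene H3f3b by 0.48 ± 0.05.

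Among 40 histone and Polycomb modifiers 4 rose (10%, against 1.43% of tested genes). Cbx8, a subunit of Polycomb repressive complex 1, had 29.4, 30.4, 28.3 and 43.9 CPM at 30 min and 12.369, 12.407, 16.548 and 13.996 CPM in control (1.25 ± 0.10, adjusted p = 2.1e-07). It lies on chromosome 11 from 119036305 to 119040969, and WT2F was the highest BDNF library. Kdm6b, a demethylase of histone H3 lysine methylation, rose by 0.31 ± 0.07 with no difference in WT2E (-0.006), and Brd2, an acetyl-lysine reader, by 0.22 ± 0.05. The median of the list was 0.01.

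Of 21 chaperones 2 rose (9.52%, against 1.43% of tested genes). Dnajb1, a cytosolic co-chaperone of Hsp70, had 163, 152, 156 and 169 CPM at 30 min and 50.5, 50.6, 57.6 and 45.6 CPM in control (1.65 ± 0.06, adjusted p = 1.92e-12), with little spread in either group. The inducible Hsp70 genes Hspa1a (0.21) and Hspa1b (0.20), near-identical copies whose reads cannot be told apart, and Hsph1 (0.08) did not pass. Hspa5, the chaperone of the endoplasmic reticulum, rose by 0.33 ± 0.04, with 517, 535, 569 and 455 CPM at 30 min and 395, 442, 444 and 364 CPM in control. Picked from the called genes after their values were seen, 4 further genes known from the response to unfolded proteins are Atf4 (0.34 ± 0.05), Ddit3 (0.37 ± 0.07), Dnajb9 (0.31 ± 0.06) and Herpud1 (0.30 ± 0.06).

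Of 23 genes of cholesterol synthesis and uptake 5 rose (21.7%, against 1.43% of tested genes). Among them were Insig1 (0.51 ± 0.06) and the enzyme genes Idi1 (0.50 ± 0.06) and Msmo1 (0.26 ± 0.05). Insig1, which holds the sterol sensor in the endoplasmic reticulum, had 322, 269, 231 and 262 CPM at 30 min and 199.9, 211, 178 and 168 CPM in control. The groups were apart for Insig1, and for Idi1 and Msmo1 they overlapped while every pair was higher at 30 min. The median of the list was 0.04, and Srebf2, the transcription factor of the pathway, was at -0.07.

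**Figure D3:**
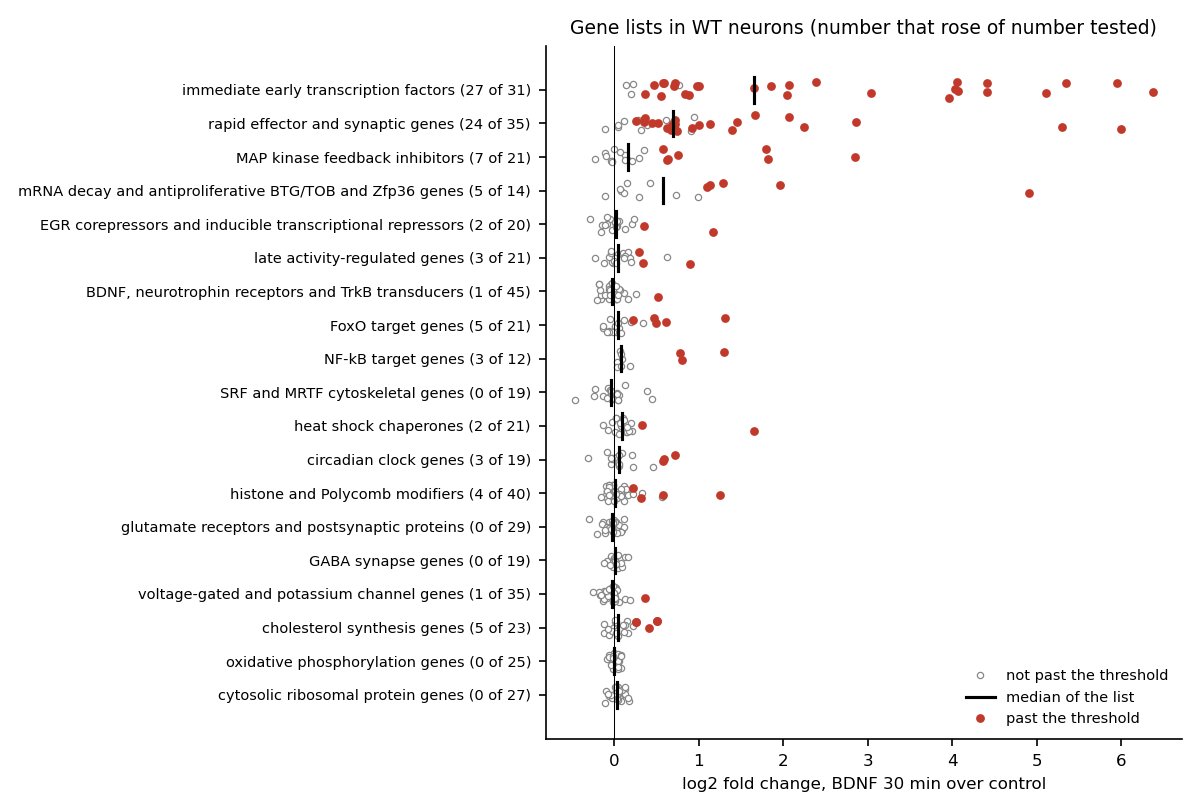
Log2 fold change of BDNF 30 min over control for each measured member of 19 gene lists, with list medians as black bars; filled red points passed the threshold and open points did not. The immediate early transcription factors (27 of 31) and rapid effectors (24 of 35) extend to the right, and the lists of synaptic, metabolic and ribosomal genes stay near 0.

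Several lists held no gene past the threshold, where 1.56% of all tested genes passed. For lists of their size, holding none is near that share. None of 29 glutamate receptor and postsynaptic genes, 19 GABA synapse genes, 25 oxidative phosphorylation genes, 27 ribosomal protein genes or 19 SRF and MRTF targets of the cytoskeleton passed, and their medians lay between -0.04 and 0.03. Actb was at 0.12 and Vcl at -0.01. Of 35 voltage-gated and potassium channel genes 1 passed (2.86%), Kcnf1, a modifier subunit of Kv2 channels (0.36 ± 0.05).

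Among cell type markers 1 gene passed, where 1.56% of all tested genes passed. No member of the pan-neuronal, excitatory, interneuron, oligodendrocyte, microglia, vascular and fibroblast or progenitor lists passed. The astrocyte markers summed to 688 to 837 CPM at 30 min and 695 to 833 CPM in controls, and 1 of 12 passed. Sox9, a transcription factor of astrocytes and progenitors, had 4.35, 9.88, 16.7 and 6.09 CPM at 30 min and 2.02, 2.09, 3.13 and 2.85 CPM in control (1.76 ± 0.19, adjusted p = 1.17e-05). Gfap (-0.12), Aqp4 (-0.07) and Slc1a3 (0.06) did not pass. Sox9 was higher in all 4 BDNF libraries than in any control, but only just apart at 4.35 CPM in WT2C at 30 min and 3.13 CPM in WT2E in control. Of 12 microglial markers 10 were too low to test. In bulk RNA a change in the number of cells of a type and a change in RNA per cell cannot be told apart.

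The noncoding gene with the largest rise was a microRNA host. The transcript 1700016P03Rik, on chromosome 11 from 75172560 to 75177633 on the plus strand, spans the hairpins of miR-212 and miR-132, a cluster known in rodents to be induced by CREB and neurotrophins. The mature 3p arms are shown because they share a seed (bases 2 to 8, in capitals; RefSeq, GRCm38.p6), and the miR-132 5p arm is shown beside them.
mmu-miR-132-3p: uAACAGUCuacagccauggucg
mmu-miR-212-3p: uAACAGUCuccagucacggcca
mmu-miR-132-5p: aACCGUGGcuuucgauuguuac
The host had 8.74, 12.5, 8.01 and 8.95 CPM at 30 min, against 0.857, 1.25, 0.916 and 0.217 CPM in control (3.61 ± 0.22, adjusted p = 2.77e-09), and the groups were apart. The row for the Mir132 hairpin followed it from very few reads, with 18, 56, 13 and 30 counts at 30 min and 5, 6, 0 and 2 counts in control (2.78 ± 0.56, adjusted p = 0.0111). Such reads are of the polyadenylated precursor and do not measure the mature microRNA. On the opposite strand Ovca2 overlaps the host and rose by 2.31 ± 0.13, and next to it Hic1, a zinc finger repressor gene with a mean of under 1 CPM, rose by 2.34 ± 0.33. Without a stated strand setting for the counting, reads from the host cannot be told apart from those of Ovca2. Mir22hg, the host of miR-22, rose by 0.41 ± 0.09. The same overlap holds for Kdm6b with its antisense Kdm6bos (2.76 ± 0.66), which had 13, 29, 11 and 19 counts at 30 min and 4, 1, 0 and 3 in control. Long noncoding genes made up 9 of the 221 rises and 3 of the 20 falls, against 8.05% of tested genes. Gm43359, a predicted gene within Atp2a2, rose by 2.56 ± 0.55. Among abundant nuclear RNAs Malat1 rose by 0.33 ± 0.07 and Meg3 fell (-0.21 ± 0.05, adjusted p = 0.0454). Malat1 did not differ in WT2E, with 114, 114, 78.8 and 121 CPM at 30 min and 81.5, 86.6, 79.3 and 89.2 CPM in control.

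The 20 genes that fell did so by small amounts. Med18, a subunit of the Mediator complex, had 1.40, 2.35, 1.39 and 2.02 CPM at 30 min and 2.88, 2.98, 3.87 and 3.09 CPM in control (-0.84 ± 0.20, adjusted p = 0.0401). Fzd8, a Wnt receptor gene, had 3.45, 3.76, 2.98 and 4.20 CPM at 30 min and 4.81, 5.74, 4.73 and 5.50 CPM in control (-0.53 ± 0.13). In both genes all 4 BDNF libraries were below all 4 controls. Noncoding genes were among the falls: Mir124a-1hg, the host of the neuronal miR-124, was at -0.47 ± 0.11 and the nuclear RNA Miat at -0.37 ± 0.07. The snoRNA host Snhg11, annotated as protein coding, was at -0.24 ± 0.06. Miat had 77.6, 86.9, 74.9 and 69.5 CPM at 30 min and 101, 87.7, 118 and 93.6 CPM in control, nearly equal in WT2D. The others of the 12 largest falls were Lrrc45 (-0.40 ± 0.10), the caspase-8 inhibitor gene Cflar (-0.35 ± 0.08), the ciliary transport gene Ttc30b (-0.34 ± 0.08), Fam193b (-0.32 ± 0.06), Cachd1 (-0.29 ± 0.07), Trank1 (-0.28 ± 0.06) and the lipid transfer gene Osbpl5 (-0.25 ± 0.06). These calls rest on few libraries: 1 gene fell without culture WT2E and 3 without WT2F, of which 0 and 3 were among the 20. Without WT2D 23 fell and without WT2C 14, and 7 and 5 of these were among the 20. All 20 kept a negative sign in each of those fits, which says little, since each was lower in all 4 cultures to begin with.

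**Figure D4:**
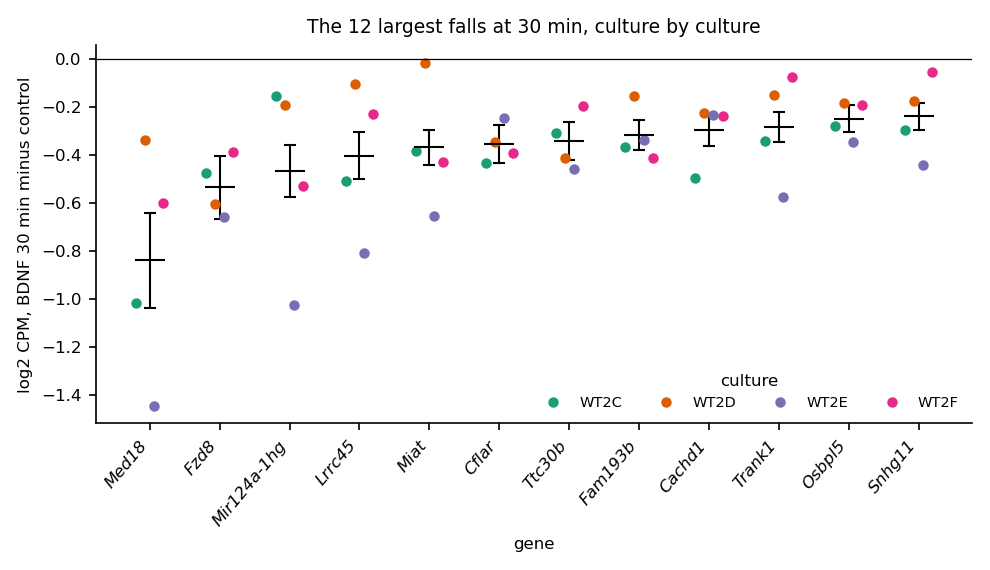
Within-culture difference in log2 CPM, BDNF 30 min minus control, for the 12 genes with the largest falls; coloured points are the 4 cultures and black bars the fitted log2 fold change ± SE. All points lie below 0, and WT2E is the lowest culture for Med18 (-1.45) and Mir124a-1hg (-1.03).

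Genes that rose were short in genomic span. The median distance from the first to the last annotated base was 8.26 kb for the 219 annotated rises and 4.56 kb for the 60 over 2-fold, against 22.9 kb for all 15394 annotated genes tested. Spans under 10 kb made up 56.2% of the rises, 80.0% of those over 2-fold and 28.2% of tested genes. Spans over 100 kb made up 3.65% of the rises, 0 of the 60 over 2-fold and 14.9% of tested genes. The genes that rose also had few exons, with medians of 4 for all rises and 3 for those over 2-fold, against 9 for tested genes. The 20 falls had a median span of 31.3 kb. The rises over 2-fold also started low, with a median control level of 4.91 CPM against 17.97 CPM for tested genes, and no test was made of these properties.

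**Figure D5:**
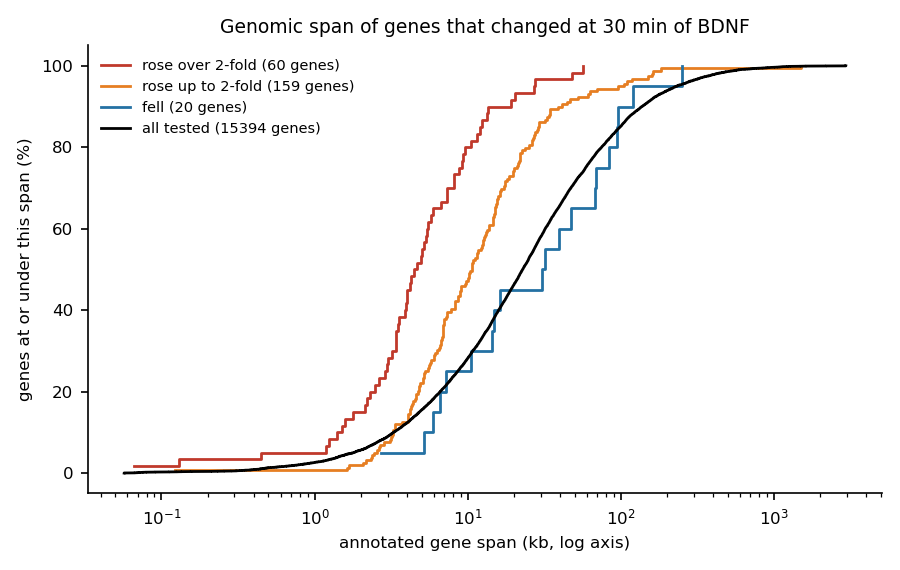
Cumulative share of genes by annotated genomic span in kb on a log axis, for genes that rose over 2-fold, rose up to 2-fold or fell at 30 min of BDNF, and for all tested. The curve of the rises over 2-fold lies to the left of the others, with 80.0% of them under 10 kb against 28.2% of all tested genes.

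The size of the response varied between cultures. The mean within-culture log2 change of the 24 largest rises was 3.81 in WT2C, 3.71 in WT2D, 3.49 in WT2E and 3.96 in WT2F. Over all 221 rises the median was 0.54, 0.50, 0.51 and 0.78 in that order of cultures, and over the 20 falls -0.38, -0.16, -0.37 and -0.21. WT2E gave the smallest change for Fos, Junb, Npas4, Nr4a1, Btg2 and Gadd45b. Among the 24, Klf2 varied most between cultures: it changed by 4.21 in WT2C and 2.34 in WT2E. Leaving out WT2F gave 154 genes past the threshold, of which 151 rose and 147 were among the 221. Among rises followed by name, the calls of Bdnf, Brd2, Gm43359, Kdm6bos, Msmo1, Nfkbid, Nptx1 and Plat were lost in 3 of the 4 fits without a culture. Those of Ddit3, Homer1, Kdm6b, Malat1, Mir132, Mir22hg and Rel were lost in 2, and those of Bhlhe40, Herpud1, Irs2 and Ptgs2 in 1.

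At 24 h most of the early genes stood lower than at 30 min, in a fit over the 12 WT libraries. In that fit 45.6% of 15892 genes differed between 24 h and 30 min (22.1% lower and 23.5% higher at 24 h). Of the 24 largest rises, which were chosen on the 30 min libraries, 23 were lower at 24 h and 1 was higher. Levels in this paragraph and the next use scaling over all 24 libraries, as mean ± SD of 4. Egr4 was at 3.71 ± 0.46 CPM at 24 h, against 71.5 ± 28.1 CPM at 30 min (-4.20 ± 0.14, adjusted p = 3.56e-12), and Npas4 was at 28.9 ± 13.2 CPM at 24 h and 528 ± 295 CPM at 30 min (-4.09 ± 0.15). Arc, at 56.2 ± 11.1 CPM at 24 h, and Egr1, at 159.6 ± 33.1 CPM, were lower as well (-2.43 ± 0.16 for Arc and -2.87 ± 0.15 for Egr1). In WT control the means were 4.87 CPM for Arc, 35.0 CPM for Egr1, 1.76 CPM for Egr4 and 26.1 CPM for Npas4. The 24 h level was not tested against control. The exception was Atf3, at 32.3 ± 6.42 CPM at 24 h and 18.2 ± 2.65 CPM at 30 min (0.84 ± 0.09). Other early rises were higher still at 24 h, such as Ptgs2 (2.67 ± 0.26), Hspa5 (0.95 ± 0.04), Spry4 (1.01 ± 0.13), Vgf (0.997 ± 0.18), Nptx1 (1.47 ± 0.15) and Homer1 (0.81 ± 0.06). Ntrk2 was lower at 24 h than at 30 min, at 421 ± 22.9 CPM against 695 ± 50.9 CPM (-0.70 ± 0.05). Of the 12 largest falls Miat (-0.63 ± 0.11) and Ttc30b (-0.51 ± 0.09) were lower again at 24 h, and Cflar (0.47 ± 0.08) and Cachd1 (0.34 ± 0.07) were higher.

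In KO cultures many of these genes responded less. The difference in the 30 min response, KO minus WT, passed for 30 of 16275 genes (0.184%), all of them negative. Of the 24 largest rises 17 were among them and all 24 had a negative difference, but these genes were picked by their size in the WT libraries that enter the difference. Fosb stood at 115 ± 34.8 CPM in KO libraries and 239 ± 33.9 CPM in WT libraries at 30 min, with controls at 19.1 ± 2.37 CPM in KO and 3.89 ± 1.20 CPM in WT (difference -3.41 ± 0.22, adjusted p = 2.35e-05). Dnajb1 had 89.3 ± 14.6 CPM in KO and 158 ± 6.48 CPM in WT at 30 min, with controls at 65.4 ± 2.84 CPM in KO and 50.2 ± 4.94 CPM in WT (-1.22 ± 0.12). The difference did not pass for Egr1 (-0.96 ± 0.27, adjusted p = 0.847) or Gadd45g (-0.58 ± 0.18, adjusted p = 1). Several KO libraries differed from the rest: in KO culture 4 mitochondrial genes took 21.7% of the counts at 30 min and 18.5% in the control, and KO 30 min library 3 had the fewest counts, 19780486. Leaving out KO culture 4 and that library gave 18 differences among the 24 largest rises and 12 largest falls, against 17 with them. Without the cultures as a replicate block 3 of them differed. Hist2h2be had 56.4 ± 4.49 CPM in KO and 4.04 ± 0.338 CPM in WT at 30 min; its counts are higher in KO and do not check the deletion, since the labels do not say which part of the gene the allele keeps.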

How the data were processed

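The authors deposited 1 table of raw counts per gene for the 24 libraries, made from polyadenylated RNA with a stranded library kit, per the labels' protocols. The submitters' processing notes name STAR 2.7.9a, DESeq2 1.38.3, limma 3.54.2, edgeR 3.40.2 and mm10; which program counted reads, with which strand setting and annotation, those notes do not say. Of 45792 gene identifiers 45143 (98.6%) were paired with symbols by a gene-name table, and the rest held 0.0822% of counts. Coordinates are those of GENCODE on mm10, and promoter and microRNA sequences those of RefSeq GRCm38.p6.

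The tests used edgeR 4.0.16 (R 4.3.3): filterByExpr with a minimum count of 10 and a minimum total of 15, TMM scaling, and quasi-likelihood tests with Benjamini-Hochberg adjustment at 0.05. The main fit held the 8 WT libraries with the culture code as a block. The code comes from the labels, and deviations of same-culture libraries correlated at 0.283 to 0.546, against -0.363 to 0.030 for other pairs. The labels do not say whether a culture is 1 embryo or several. With the culture as a block, the fit takes the spread of the within-culture change over these 4 cultures, whatever number of embryos each holds. The quasi-likelihood test then draws each gene's variance towards a trend over all genes. That trend had a median of 14.2 prior degrees of freedom, against 3 residual ones from the libraries. For a gene whose cultures differ widely, such as Vgf or Bdnf, SE and p can therefore be smaller than its own 4 changes would give. None of the 8 WT libraries compared here duplicated another. Within-culture differences are log2 CPM with a prior count of 2. The KO difference was fitted over 16 libraries and the 24 h difference over 12. Scripts were tested on simulated data.

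Genes were named by this rule: past the threshold, at least 1 CPM on average, the same direction in all 4 cultures and no predicted model, the 24 largest rises and 12 largest falls; up to 4 members of each of 27 gene lists, printed where they passed; the 4 noncoding or predicted genes with the largest change; and Bdnf, Ntrk2 and Hist2h2be. Other genes named were chosen after their values were seen. A few genes past the threshold are not reported here. The members and lists were chosen with earlier results of these data known. Alternatives were RLE scaling, no low-count filter, no block, DESeq2 1.42.0, larger sets of libraries, each culture left out, cultures WT2C and WT2D or WT2E and WT2F alone, counts thinned to the smallest library, and KO libraries left out.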

Additional observations from a re-analysis of the deposited data

Results flagged for a closer look

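Of 206 groups of 4 libraries examined (103 genes, BDNF 30 min and control each), 12 held a library whose gap to its nearest neighbour, divided by the range of the group, was over Dixon's critical value. Chance alone flags about 1 in 20 such groups. Among BDNF 30 min libraries WT2F was high for Cbx8 (43.9 CPM) and Nfkbiz (4.02 CPM), and WT2C was low for Fosb (192 CPM) and high for Klf6 (346 CPM). Among controls WT2F was high for Egr4 (3.11 CPM) and Hist2h2be (5.98 CPM) and low for Atf4 (294 CPM), Ddit3 (20.2 CPM) and Trib1 (8.11 CPM). The WT2E control was high for Gadd45g (9.69 CPM) and Osbpl5 (58.0 CPM), and the WT2D control was high for Kcnf1 (99.5 CPM).

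The 30 min response differed between KO and WT for 25 of the named genes by a test of the difference itself, against 0.184% of all genes tested, and all 25 responses were smaller in KO. Nearly all named genes were picked for their rise in WT libraries that enter this difference, which favours that direction. As KO minus WT log2 differences, the AP-1 genes gave -3.41 for Fosb, -2.23 for Junb, -2.22 for Fos, -1.38 for Atf3 and -1.28 for Jun. The EGR genes gave -2.63 for Egr2, -2.498 for Egr4 and -1.49 for Egr3. Other transcription factor genes gave -2.32 for Nr4a1, -2.13 for Npas4 and -1.49 for Ier2. The regulators of messenger RNA decay gave -1.98 for Btg2, -1.18 for Tob1, -0.87 for Tob2 and -0.81 for Btg1. Effectors gave -2.41 for Gadd45b, -2.05 for Ccn1, -1.88 for Arc, -1.43 for Arl4d, -1.17 for Fbxo33 and -0.72 for Sik1. The remaining differences were -1.34 for Dusp1, -1.25 for Cbx8, -1.22 for Dnajb1 and -1.19 for Tiparp. KO libraries with a high mitochondrial share enter these values, and their part in them was not tested beyond leaving them out.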

How the results depend on the processing

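All 221 rises and all 20 falls kept their sign under every setting run, and the number past the threshold moved. The kept sign was nearly fixed in advance. Every setting used these WT libraries or part of them, and 238 of the 241 genes moved the same way in all 4 cultures. Without the culture as a replicate block 60 genes passed, all rises and 0 falls (172 genes lower at an unadjusted p under 0.05 in edgeR), and 32 of the genes named by the rule passed, against 74 with the block. With all 24 libraries 98 genes passed with the replicate block and 62 without it, again with 0 falls (203 and 66 genes lower at an unadjusted p under 0.05), and 37 and 32 genes named by the rule passed. Without the filter on low counts 389 passed, 79 of them falls. Over all 12 WT libraries 4 genes fell, with WT2C and WT2D alone 35, and with WT2E and WT2F alone 53. Leaving out 1 culture at a time gave 154 to 247 genes past the threshold, 151 to 233 rises and 1 to 23 falls. RLE scaling gave 234, DESeq2 238 and thinned counts 241. Of 100 genes past the threshold, those named by the rule and those added later, 66 passed in every fit that left out a culture. Among the 24 largest rises and 12 largest falls, differences between KO and WT numbered 17 with the block and 3 without it. Ntrk2, near 0, changed sign with WT2E and WT2F alone (0.031) and without replicate 1, where leaving out 1 culture gave -0.068 to 0.0017. The cause of these changes was not tested. The fit of 8 libraries left 3 residual degrees of freedom, beside a median of 14.2 prior ones drawn from all genes.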
